A study of Sus scrofa with 14 samples.

Results

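The TGF-beta and BMP ligands and receptors analysed here are 10 genes, chosen by name from the gene column of the deposited matrices, out of 30071 genes listed there. They are the ligands TGFB1, TGFB2 and TGFB3, the activin subunit INHBA, the TGF-beta receptors TGFBR1, TGFBR2 and TGFBR3, and the BMP receptors BMPR1A, BMPR1B and BMPR2. All 10 had UMIs in the gland nuclei, from 377 UMIs for INHBA to 246704 UMIs for TGFBR3. Single nuclei came from mammary glands of multiparous sows, 2 sows at each of 5 stages, namely day 90 of gestation (G90), day 0 (L0) and day 20 (L20) of lactation, and 2 days (PI2) and 7 days (PI7) post natural involution. Tissue sections on spatial arrays (Visium) were taken at G90 and PI2, 1 at each stage, and milk cells at L0 and L20, 1 library at each stage. No treatment or genetic change is given for any group.

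TGF-beta ligands are secreted bound to a propeptide and to latency proteins, and act after they are released. The active ligand binds the type II receptor TGFBR2, which recruits and phosphorylates the type I receptor TGFBR1, and TGFBR3 (betaglycan) is a coreceptor that presents ligand, TGFB2 above all. BMPs signal in the same manner through type I receptors such as BMPR1A and BMPR1B together with BMPR2, and INHBA is the subunit of activin A. In the mammary gland TGF-beta restrains ductal growth and takes part in involution, and BMP signals act in the communication between epithelium and stroma.

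The gland libraries held between 18962138 and 53165191 UMIs, and 126833 of 128233 nuclei were kept, with a median of 1382 to 2496 UMIs a nucleus by sow. Of these, 103017 nuclei carried at least 2 different markers of a class and more than of any other class, and 10 classes were compared, named after those markers, from 67543 epithelial-like to 610 adipocyte-like nuclei. B/plasma-like nuclei could be tested in 9 sows and adipocyte-like nuclei in 6 sows. Mixed nuclei, those with 2 or more markers of a further class, made up 73.3% of myoepithelial-like, 73.1% of lymphatic endothelial-like, 66.5% of mural-like and 61.0% of blood endothelial-like nuclei and 13.2% to 52.3% of the other 6 classes. The myoepithelial and mural marker lists share MYH11, ACTA2 and MYLK, and both endothelial lists share PECAM1 and CDH5. A nucleus with 2 such shared markers was therefore counted as mixed, and the part of this overlap in the shares was not tested. Any 2 of the 12 gland and milk libraries shared 0.55% to 1.52% of the barcodes of the smaller one. L20 replicate 2 stood apart from the other glands. Only 9.04% of its kept nuclei were epithelial-like, against 24.97% to 82.1% in the other 9 glands, 29.1% were fibroblast-like, and it gave 499 of the 610 adipocyte-like nuclei. Levels below are UMIs of a gene per 1000000 UMIs of the sum (CPM). Fold changes are on the log2 scale, with adjusted p-values from edgeR's quasi-likelihood test, and a gene was called at an adjusted p under 0.05 and an absolute log2 fold change over 1.

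The genes lie on 10 pig chromosomes of Sscrofa11.1 (RefSeq annotation). TGFB1 (NCBI Gene 397078) is at chr6:49332169-49348642 on the minus strand, TGFB2 (397084) at chr10:8306136-8435307 on the plus strand and TGFB3 (397400) at chr7:99133873-99162239 on the minus strand. INHBA (397093) is at chr18:52889684-52909260, TGFBR1 (396665) at chr1:240842735-240918267, TGFBR2 (100038019) at chr13:16784370-16875828 and TGFBR3 (397512) at chr4:125109939-125310788, all on the plus strand. BMPR1A (100169652) is at chr14:87743270-87891790 and BMPR2 (100127483) at chr15:105971577-106132496 on the plus strand, and BMPR1B (396691) at chr8:124536648-125035841 on the minus strand.

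The 3 TGF-beta ligands were each highest in other classes of nuclei and both type I BMP receptors in the same class, as described below, so the 250 bases before the annotated start of each are shown to set them side by side, 5′ to 3′ on the strand of the gene. Capitals mark matches, on either strand, to 4 motifs, namely CGTCA (the core of the cAMP response element), TATAAA (the TATA box), GGGCGG (the GC box) and CCAAT (the CCAAT box), so a match on the opposite strand shows as its reverse complement. TGFB1 is read from chr6:49348643-49348892, TGFB2 from chr10:8305886-8306135, TGFB3 from chr7:99162240-99162489, BMPR1A from chr14:87743020-87743269 and BMPR1B from chr8:125035842-125036091.
TGFB1: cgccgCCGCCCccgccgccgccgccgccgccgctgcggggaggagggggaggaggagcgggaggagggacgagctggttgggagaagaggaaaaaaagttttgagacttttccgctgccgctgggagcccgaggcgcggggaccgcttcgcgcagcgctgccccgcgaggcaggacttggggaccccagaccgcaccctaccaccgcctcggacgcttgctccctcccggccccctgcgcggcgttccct
TGFB2: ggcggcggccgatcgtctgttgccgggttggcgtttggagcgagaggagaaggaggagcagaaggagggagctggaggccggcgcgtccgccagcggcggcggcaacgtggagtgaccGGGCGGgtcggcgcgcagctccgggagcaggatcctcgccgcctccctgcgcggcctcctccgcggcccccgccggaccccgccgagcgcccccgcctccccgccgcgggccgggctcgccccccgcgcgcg
TGFB3: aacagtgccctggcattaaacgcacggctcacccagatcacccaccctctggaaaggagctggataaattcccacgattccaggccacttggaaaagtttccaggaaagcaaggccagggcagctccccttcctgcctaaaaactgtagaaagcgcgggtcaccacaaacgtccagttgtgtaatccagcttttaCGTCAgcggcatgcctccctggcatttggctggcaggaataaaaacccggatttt
BMPR1A: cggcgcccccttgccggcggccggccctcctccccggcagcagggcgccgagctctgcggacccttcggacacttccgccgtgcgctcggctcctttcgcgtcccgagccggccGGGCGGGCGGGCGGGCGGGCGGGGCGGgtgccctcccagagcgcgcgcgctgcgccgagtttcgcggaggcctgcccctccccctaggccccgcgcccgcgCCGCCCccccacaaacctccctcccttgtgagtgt
BMPR1B: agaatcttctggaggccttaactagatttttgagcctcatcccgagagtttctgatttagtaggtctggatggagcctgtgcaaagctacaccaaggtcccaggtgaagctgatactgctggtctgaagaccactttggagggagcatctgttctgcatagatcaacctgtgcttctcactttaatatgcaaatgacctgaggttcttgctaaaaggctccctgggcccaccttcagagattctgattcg

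The TGFB1 window had 74.0% G and C bases, and those of TGFB2 and BMPR1A each had 80.0%, against a median of 57.6% over 19556 windows of the same length in the annotation. The windows of TGFB3 (52.8%) and BMPR1B (47.6%) were below that median. CGTCA was found in the TGFB3 window, 55 to 51 bases before the start, and not in those of TGFB1 and TGFB2, while 19.64% of all windows held it. The BMPR1A window held 7 copies of GGGCGG, 6 of them overlapping in a run from 136 to 110 bases before the start, whereas that of BMPR1B held none of the 4 motifs. GGGCGG was in 45.9% of all windows, CCAAT in 31.9% and TATAAA in 9.77%, and neither of the latter motifs was in any of the 5 windows printed. These matches describe the letters of each window and are not binding sites shown by these data.

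To find where the level of each gene is highest, each class of nuclei was compared with the mean of the other classes, in UMIs summed per sow. The level of TGFB1 was highest in T/NK-like and macrophage-like nuclei, that of TGFB2 in lymphatic endothelial-like nuclei and that of TGFB3 in mural-like nuclei. Mural-like nuclei are named after markers of the pericytes and smooth muscle cells around vessels. In numbers of UMIs, the many epithelial-like nuclei held more of each ligand than any other class, 3167 of 12257 UMIs of TGFB1, 11017 of 21621 of TGFB2 and 2010 of 3225 of TGFB3. Over the classes, 28 of 90 tests of the genes were called, 9 genes being tested in each class, since INHBA was too low to be tested. The shares of all 12045 tested genes called in the same tests were 20.3% for adipocyte-like, 12.3% for B/plasma-like, 11.1% for blood endothelial-like, 24.2% for epithelial-like, 11.5% for fibroblast-like, 13.3% for lymphatic endothelial-like, 20.1% for macrophage-like, 9.30% for mural-like, 11.2% for myoepithelial-like and 16.5% for T/NK-like nuclei. Of the 9 genes, 5 were called in adipocyte-like, 0 in B/plasma-like, 2 in blood endothelial-like, 5 in epithelial-like, 3 in fibroblast-like, 4 in lymphatic endothelial-like, 4 in macrophage-like, 1 in mural-like, 2 in myoepithelial-like and 2 in T/NK-like nuclei. In B/plasma-like nuclei, where edgeR's test called none, 6 of the 9 genes had an unadjusted p under 0.05, as had 32.4% of all genes.

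**Figure D1:**
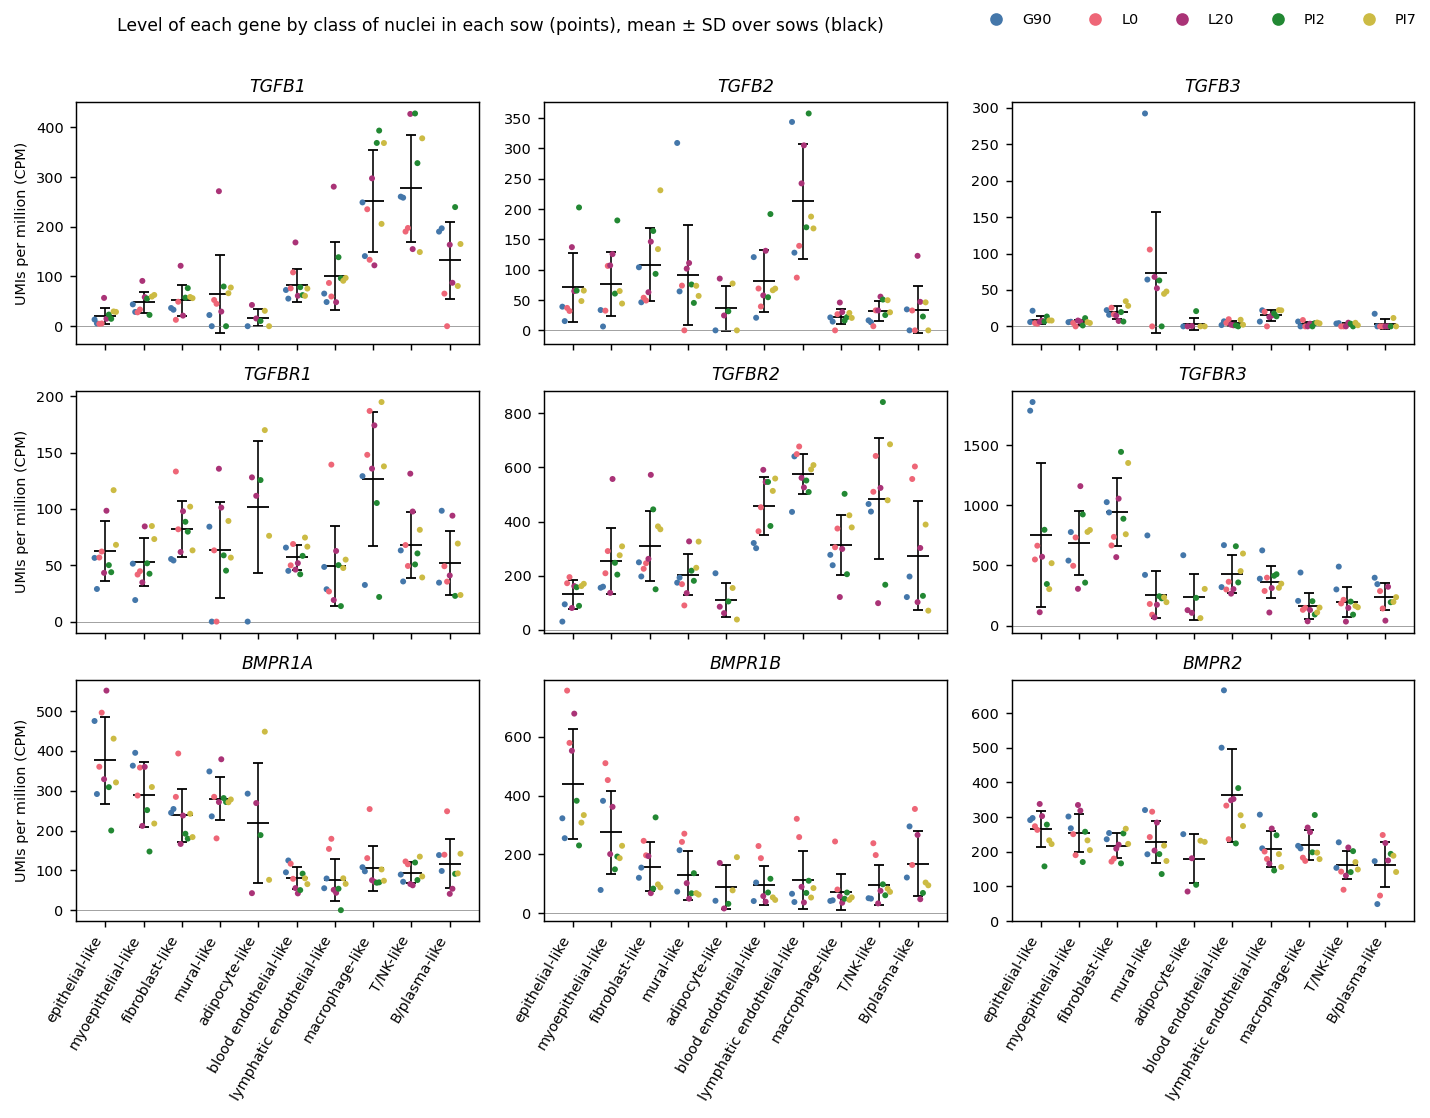
Level of each gene except INHBA (y axis, CPM) in each class of nuclei (x axis), with 1 point per sow and the mean and SD over sows in black. TGFB1 was highest in T/NK-like and macrophage-like nuclei, TGFB2 in lymphatic endothelial-like, TGFB3 in mural-like and BMPR1B in epithelial-like nuclei.

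TGFB1 encodes the most widely studied TGF-beta, made in latent form by many immune cells. In T/NK-like nuclei its level in replicates 1 and 2 was 261 and 258 CPM at G90, 190.3 and 198 CPM at L0, 427 and 155 CPM at L20, 428 and 328 CPM at PI2, and 149 and 378 CPM at PI7. The L20 and PI7 replicates were far apart and overlapped with other stages, while the PI2 sows were above the G90 sows and these above the L0 sows. Macrophage-like nuclei held 249 and 141 CPM at G90, 235 and 134 CPM at L0, 297 and 122 CPM at L20, 369 and 393 CPM at PI2, and 206 and 368 CPM at PI7. In every sow both classes were above the mean of the other classes. The log2 fold change against the other classes was 2.21 ± 0.15 (SE, adjusted p = 6.78e-24) in T/NK-like and 2.07 ± 0.15 (adjusted p = 7.84e-23) in macrophage-like nuclei, and the difference between them was 0.12 ± 0.21 (adjusted p = 0.727). Epithelial-like nuclei held 4.77 to 56.9 CPM of TGFB1, less than the mean of the other classes in all 10 sows, with a log2 fold change of −2.17 ± 0.18 (adjusted p = 3.84e-19).

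Below T/NK-like and macrophage-like nuclei the mean TGFB1 level ran from 132 ± 77.3 CPM (SD, n = 9 sows) in B/plasma-like through 101 ± 68.7 CPM in lymphatic endothelial-like, 82.0 ± 33.8 CPM in blood endothelial-like, 64.5 ± 78.2 CPM in mural-like, 52.3 ± 30.9 CPM in fibroblast-like, 48.4 ± 21.1 CPM in myoepithelial-like and 19.8 ± 15.9 CPM in epithelial-like nuclei (n = 10 sows each) to 16.6 ± 17.2 CPM in adipocyte-like nuclei (n = 6). Neighbours in that order differed past the limits at 2 steps, macrophage-like over B/plasma-like nuclei (log2 difference 1.19 ± 0.27, adjusted p = 0.000409) and myoepithelial-like over epithelial-like nuclei (1.43 ± 0.22, adjusted p = 9.18e-08). Over the 45 pairs of classes, 7.94% to 32.0% of all genes were called. Adipocyte-like nuclei were also lower in TGFB1 (−1.97 ± 0.39, adjusted p = 4.2e-05). This call was lost with sums of at least 30 nuclei (−1.31), where L20 replicate 2 alone remained in the class.

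TGFB2 is the isoform that depends most on betaglycan for binding its receptors. Lymphatic endothelial-like nuclei held 344 and 128 CPM in the G90 sows, 87.0 and 139 CPM at L0, 242 and 305 CPM at L20, 169.95 and 358 CPM at PI2, and 188 and 168 CPM at PI7. This class was the highest of all in 9 of 10 sows. Its log2 fold change was 2.07 ± 0.19 (adjusted p = 1.37e-16), a 4.20-fold difference. Fibroblast-like nuclei came next, with 108 ± 60.4 CPM (SD, n = 10) and 1.05 ± 0.20 against the other classes (adjusted p = 8.34e-06), and lay 0.92 ± 0.27 below the lymphatic class (adjusted p = 0.00426), under the fold limit. The fibroblast call was lost without PI7 replicate 2 (0.98) and without sow as a block (0.87). Mural-like (91.1 ± 82.4 CPM), blood endothelial-like (82.0 ± 51.1 CPM), myoepithelial-like (76.2 ± 53.1 CPM) and epithelial-like nuclei (70.7 ± 56.9 CPM) followed with no step past the limits between them, and epithelial-like exceeded adipocyte-like nuclei, the next class, by 1.34 ± 0.53 (adjusted p = 0.0433). Macrophage-like nuclei, at 22.6 ± 11.9 CPM, were lower than the other classes (−1.46 ± 0.27, adjusted p = 3.67e-06). The lower level in adipocyte-like nuclei (−1.3 ± 0.50, adjusted p = 0.0428) was called in 4 of 19 alternative settings.

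TGFB3 was the least abundant of the 3 isoforms in UMIs of the nuclei, 3225 in all gland nuclei against 12257 of TGFB1 and 21621 of TGFB2. In the tissue sections TGFB2 had the fewest UMIs instead, 242 against 278 of TGFB3 at G90 and 100 against 236 at PI2. At G90 these 2 were close, at 5.65 and 6.49 CPM. Mural-like nuclei held 292 and 64.3 CPM at G90, 105 CPM and no UMI at L0, 67.9 and 52.3 CPM at L20, 63.0 CPM and no UMI at PI2, and 44.7 and 47.8 CPM at PI7. The sows with no UMI gave 20 nuclei at L0 and 12 nuclei at PI2, and the other 8 sows were all above the mean of their other classes. The log2 fold change was 3.73 ± 0.28 (adjusted p = 3.27e-21), a 13.3-fold difference, and mural-like nuclei exceeded fibroblast-like nuclei, the class below them, by 2.01 ± 0.33 (adjusted p = 7.7e-07). These values rest on 145 UMIs in 1145 mural-like nuclei. Fibroblast-like nuclei (19.2 ± 8.83 CPM, log2 fold change 1.49 ± 0.26, adjusted p = 1.13e-06) and lymphatic endothelial-like nuclei (15.2 ± 7.36 CPM, 1.36 ± 0.29, adjusted p = 6.63e-05) were also higher than the other classes. T/NK-like nuclei (−1.40 ± 0.47, adjusted p = 0.0122) and blood endothelial-like nuclei (−1.07 ± 0.38, adjusted p = 0.0248) were lower, the blood endothelial call holding in 10 of 18 alternative settings. When mixed nuclei were left out, TGFB3 fell below the limit on low counts and could not be tested.

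**Figure D2:**
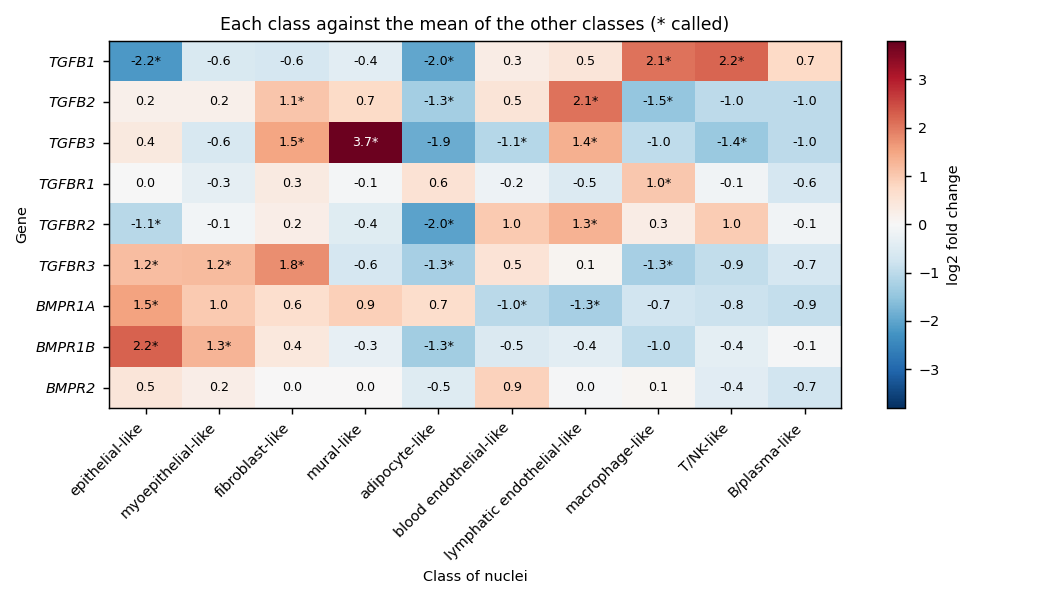
Log2 fold change of 9 genes (rows) in each class of nuclei (columns) against the mean of the other classes, with an asterisk for the 28 calls. The highest value is that of TGFB3 in mural-like nuclei (3.73), and the row of BMPR2 holds no call.

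Among the receptors, the TGF-beta receptor TGFBR2 was highest in lymphatic endothelial-like nuclei and low in epithelial-like nuclei, while the type I BMP receptors BMPR1A and BMPR1B were highest in epithelial-like nuclei. The coreceptor TGFBR3 was high in fibroblast-like and in both kinds of epithelial nuclei. TGFBR1 and BMPR2 were spread more evenly over the classes.

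TGFBR1, the type I receptor of TGF-beta, ran from 49.2 ± 35.6 CPM (SD, n = 10) in lymphatic endothelial-like to 127 ± 59.2 CPM in macrophage-like nuclei. By sow, macrophage-like nuclei held 129 and 32.5 CPM at G90, 148 and 187 CPM at L0, 136 and 174 CPM at L20, 105 and 21.9 CPM at PI2, and 195 and 138 CPM at PI7. Replicate 2 was low at G90 and at PI2, and the other 8 sows were above the mean of their other classes. The log2 fold change of 1.04 ± 0.14 (adjusted p = 3.51e-10) was close to the fold limit, and 9 of 19 alternative settings kept the call. No neighbours in the order of the classes differed past the limits for this gene.

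TGFBR2, the type II receptor that binds TGF-beta, lay between 436 and 677 CPM in the lymphatic endothelial-like nuclei of the 10 sows, with a mean of 575 ± 73.4 CPM (SD). The log2 fold change was 1.31 ± 0.15 (adjusted p = 1.38e-12), and 0.60 with mixed nuclei left out. T/NK-like nuclei (485 ± 223 CPM) and blood endothelial-like nuclei (458 ± 108 CPM) followed and did not differ from the lymphatic class (adjusted p = 0.256 and 0.547, log2 differences 0.31 and 0.28). Epithelial-like nuclei held 30.5 to 195 CPM and were below the mean of the other classes in all 10 sows (−1.06 ± 0.17, adjusted p = 6.16e-08), although 12 of 19 alternative settings brought this value under the fold limit. Adipocyte-like nuclei, at 38.1 to 209 CPM, were lower still against the other classes (−2.03 ± 0.33, adjusted p = 4.45e-07). Macrophage-like (312 ± 111 CPM), fibroblast-like (310.01 ± 129.76 CPM), B/plasma-like (274 ± 201 CPM), myoepithelial-like (254 ± 122 CPM) and mural-like nuclei (204 ± 75.4 CPM) lay between.

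TGFBR3 reached 569 to 1445 CPM in fibroblast-like nuclei, whose mean of 944 ± 286 CPM (SD, n = 10) was the highest (log2 fold change 1.76 ± 0.13, adjusted p = 1.64e-21). Epithelial-like nuclei followed at 751 ± 598 CPM (1.18 ± 0.14, adjusted p = 1.87e-12) and myoepithelial-like nuclei at 687 ± 263 CPM (1.21 ± 0.14, adjusted p = 3.63e-12). The SD of the epithelial-like nuclei was wide, and both G90 sows stood above all others, as described below by stage. The epithelial call was lost with other size factors (0.89 with RLE, 0.88 with DESeq2), and the myoepithelial call with mixed nuclei left out (0.92). Macrophage-like nuclei had the lowest mean (164 ± 109 CPM, −1.26 ± 0.18, adjusted p = 2.08e-09), and adipocyte-like nuclei were lower as well (−1.27 ± 0.28, adjusted p = 0.000187). By sow, 13.3% to 58.3% of adipocyte-like nuclei held a UMI of TGFBR3, and 499 of these 589 nuclei came from L20 replicate 2.

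BMPR1A had UMIs in all classes of nuclei, with mean levels between 76.2 ± 52.9 CPM (SD, n = 10) in lymphatic endothelial-like and 376 ± 109 CPM in epithelial-like nuclei. The part of RNA freed from epithelial cells in the lower levels was not tested. Epithelial-like nuclei held 475 and 292 CPM at G90, 360.1 and 496 CPM at L0, 329 and 551 CPM at L20, 309 and 200.03 CPM at PI2, and 431 and 321 CPM at PI7. No stage was apart from all the others, and the PI2 sows overlapped with the G90 sows alone. The class was above the mean of the others in 10 of 10 sows, with a log2 fold change of 1.52 ± 0.11 (adjusted p = 1.27e-21). Myoepithelial-like (290.1 ± 81.3 CPM), mural-like (280.1 ± 54.4 CPM), fibroblast-like (238 ± 66.9 CPM) and adipocyte-like nuclei (219.5 ± 150.2 CPM, n = 6) came next, and the 1 step between neighbours past the limits was from adipocyte-like to B/plasma-like nuclei (1.41 ± 0.29, adjusted p = 7.3e-05). Blood endothelial-like (−1.03 ± 0.16, adjusted p = 3.15e-08) and lymphatic endothelial-like nuclei (−1.27 ± 0.16, adjusted p = 2.29e-10) were lower than the other classes, and both calls were lost with mixed nuclei left out (−0.48 and −0.82).

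BMPR1B was the gene with the widest difference between epithelial-like nuclei and the rest among the receptors. Epithelial-like nuclei held 230.4 to 758 CPM, with a mean of 440.4 ± 187 CPM (SD, n = 10) and a log2 fold change of 2.25 ± 0.14 (adjusted p = 5.15e-27), a 4.76-fold difference. Myoepithelial-like nuclei, named after markers of the contractile layer under the secretory cells, followed at 275 ± 143 CPM (1.29 ± 0.16, adjusted p = 2.09e-11). They lay 0.86 ± 0.21 below the epithelial class (adjusted p = 0.000526) and exceeded B/plasma-like nuclei by 1.21 ± 0.28 (adjusted p = 0.000424). B/plasma-like (168 ± 110.1 CPM, n = 9), fibroblast-like (157 ± 83.4 CPM), mural-like (128 ± 83.3 CPM), lymphatic endothelial-like (112 ± 97.4 CPM), T/NK-like (95.7 ± 67.6 CPM), blood endothelial-like (94.1 ± 66.0 CPM), adipocyte-like (87.9 ± 74.9 CPM, n = 6) and macrophage-like nuclei (71.8 ± 62.0 CPM) followed with no step past the limits. In 7 of the 9 classes other than epithelial-like the sow with the highest BMPR1B level was an L0 sow, the stage at which epithelial-like nuclei held most of it. The part of RNA freed from epithelial cells in the levels of the other classes was not tested. The lower level in adipocyte-like nuclei (−1.32 ± 0.40, adjusted p = 0.00852) was lost without L20 replicate 2 (−0.68).

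BMPR2, the type II receptor of BMPs, was the most even of the tested genes by calls, with 0 calls in 10 classes and mean levels of 162 to 362 CPM. Blood endothelial-like nuclei held 500.02 and 665 CPM at G90, 333 and 236 CPM at L0, 348 and 352 CPM at L20, 224 and 384 CPM at PI2, and 305 and 274 CPM at PI7, and were the highest class in 9 of 10 sows. Both G90 sows were above the other 8. Its log2 fold change was 0.87 ± 0.10 (adjusted p = 9.79e-12), under the fold limit. It exceeded epithelial-like nuclei, the class below it, by 0.37 ± 0.14 (adjusted p = 0.0225).

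INHBA gave 377 UMIs over all gland nuclei and was at or near 0 in most sums. G90 replicate 1 held 157 of these UMIs, in 88 of 11428 nuclei, and 93 of them lay in 38 of its 453 blood endothelial-like nuclei, with at most 10 in 1 nucleus. The other G90 sow had no INHBA UMI in 147 blood endothelial-like nuclei, and the remaining sows had 0 to 5 UMIs in that class. The level of 82.6 CPM in this class is therefore that of 1 sow, and the mean of 11.4 ± 25.8 CPM (SD, n = 10) is smaller than its SD. In epithelial-like nuclei INHBA was at 0.344 ± 0.291 CPM, and adipocyte-like nuclei had no UMI in 6 sows.

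Genes whose log level moved most closely with each of these genes over 95 sums of sow and class were listed from 13146 genes, as a description, since sums of 1 sow share a library and sums of 1 class hold nuclei of 1 kind. TGFB1 was nearest to LCP2 (Pearson r = 0.72), LAPTM5 (0.72) and IL27RA (0.70), all known from leukocytes, and TGFB2 to DAB2IP (0.78), RHOJ (0.78) and ZNF662 (0.74). TGFB3 was nearest to RERG (0.65), CSRP2 (0.64) and SCARF2 (0.63), TGFBR1 to CTSA (0.66), TGFBR2 to CMAH (0.64) and TGFBR3 to PDZRN3 (0.68). BMPR1A was nearest to EPS8 (0.70) and DSTN (0.69), BMPR1B to MACC1 (0.71), CADPS2 (0.71) and ACSL3 (0.69), and BMPR2 to ARHGEF12 (0.61). The highest value for INHBA was 0.51, with TNFAIP8L1.

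A list of 80 other genes of the pathways, of which 77 are in the files and 58 could be tested by class, was set beside the 10 genes. Fibroblast-like nuclei were higher in 23 and lower in 1 of the 58, blood endothelial-like nuclei in 18 and 2, mural-like nuclei in 13 and 0, and myoepithelial-like and lymphatic endothelial-like nuclei each in 12 and 6. Epithelial-like nuclei were higher in 3 and lower in 19, macrophage-like nuclei in 6 and 21, T/NK-like nuclei in 3 and 24, B/plasma-like nuclei in 2 and 15, and adipocyte-like nuclei in 7 and 13. Of all 12045 genes, 8.43% were called higher and 3.11% lower in fibroblast-like, 8.39% and 15.8% in epithelial-like, 10.6% and 9.54% in macrophage-like and 8.48% and 8.05% in T/NK-like nuclei. These shares were 8.54% and 2.52% in blood endothelial-like, 8.67% and 4.62% in lymphatic endothelial-like, 7.48% and 1.82% in mural-like, 7.19% and 4.02% in myoepithelial-like, 7.47% and 4.82% in B/plasma-like and 7.28% and 13.1% in adipocyte-like nuclei. The median log2 fold change of the 58 genes was −0.30 in epithelial-like and 0.50 in fibroblast-like nuclei, against 0.08 and −0.09 over all 12045 genes.

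**Figure D3:**
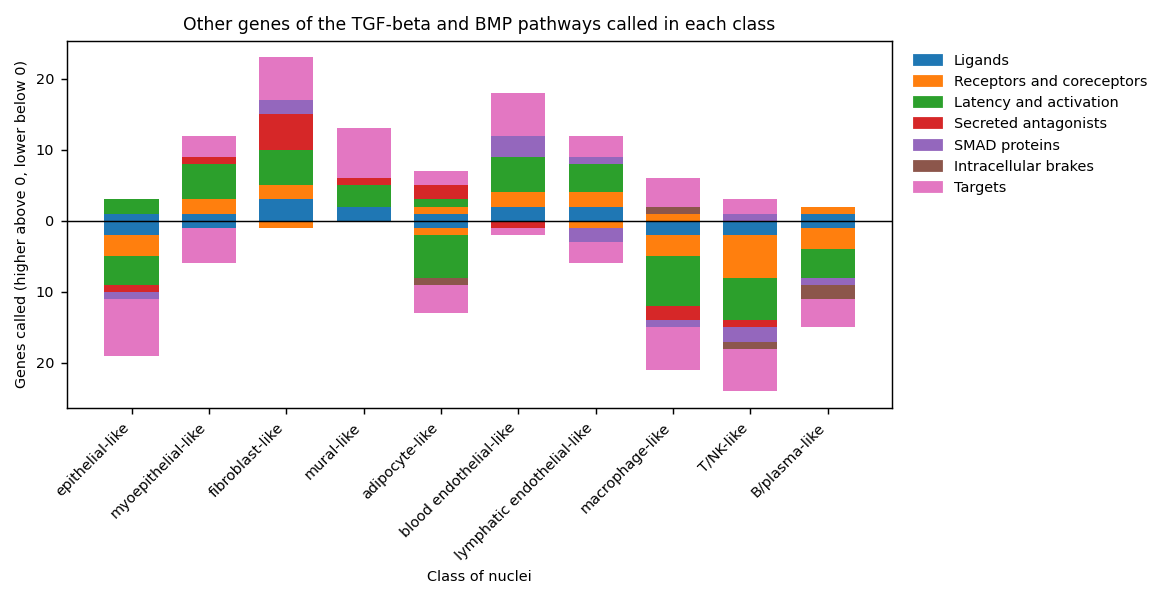
Number of the 58 tested pathway genes called higher (above 0) or lower (below 0) in each class of nuclei, coloured by role. Fibroblast-like nuclei have the most genes higher (23) and T/NK-like nuclei the most lower (24).

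By role, genes of latency and activation were called higher in 5 of 10 in fibroblast-like, blood endothelial-like and myoepithelial-like nuclei. Of all genes, 8.43%, 8.54% and 7.19% were called higher in these classes, in that order. In fibroblast-like nuclei the latency and activation genes included the microfibril protein FBN1 (log2 fold change 3.48 ± 0.18) and the latent TGF-beta binding protein LTBP4 (2.38 ± 0.17). Of the secreted antagonists, 5 of 6 tested were higher in fibroblast-like nuclei, where 8.43% of all genes were higher. Among them were the BMP antagonist CHRD (4.53 ± 0.31) and BMPER (1.98 ± 0.15). The BMP coreceptor RGMA (2.13 ± 0.16) and the target ZEB1 (2.29 ± 0.16) were higher as well.

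In epithelial-like nuclei the integrin subunits that can release latent TGF-beta, ITGB8 (1.92 ± 0.12) and ITGB6 (2.00 ± 0.16), were higher together with MSTN (2.02 ± 0.18), while ZEB1 (−3.64 ± 0.25), ZEB2 (−3.33 ± 0.28) and FBN1 (−3.12 ± 0.27) were lower. Of the targets, 8 of 11 tested were lower in epithelial-like nuclei and 0 were higher, where 15.8% of all genes were lower and 8.39% higher. Myoepithelial-like nuclei were higher in ITGB6 (2.14 ± 0.17), LTBP2 (3.0 ± 0.23), ACVR2A (1.72 ± 0.14), ID4 (4.35 ± 0.19) and CCN2 (3.49 ± 0.21) and lower in ZEB1 (−2.37 ± 0.25). ZEB1 and ZEB2 are repressors of epithelial genes, and ID proteins are common targets of BMP.

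LRRC32, which anchors latent TGF-beta to the cell surface, was higher in both endothelial classes, at 3.16 ± 0.20 in blood and 2.49 ± 0.23 in lymphatic endothelial-like nuclei. Blood endothelial-like nuclei were further higher in the coreceptor ENG (3.66 ± 0.18), ID3 (3.66 ± 0.23), the ligand BMP6 (2.84 ± 0.19) and FBN1 (2.51 ± 0.19). Lymphatic endothelial-like nuclei, where TGFB2 and TGFBR2 were highest, were higher in SMAD1 (2.55 ± 0.15), LTBP4 (2.80 ± 0.17), LTBP1 (2.85 ± 0.19) and RGMB (1.74 ± 0.14). Mural-like nuclei, where TGFB3 was highest, were higher in ID4 (3.77 ± 0.25), FN1 (3.09 ± 0.31), LRRC32 (2.70 ± 0.28), LTBP1 (1.92 ± 0.22) and ZEB2 (1.84 ± 0.22).

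Among the immune classes, macrophage-like nuclei were higher in ZEB2 (3.63 ± 0.18), TGFBI (2.79 ± 0.24), the type I receptor ACVRL1 (2.17 ± 0.20) and the ubiquitin ligase SMURF1 (1.3 ± 0.12), and lower in FBN1 (−2.46 ± 0.31) and SMAD1 (−1.61 ± 0.22). T/NK-like nuclei, which shared the highest TGFB1 level, were higher in the inhibitory SMAD7 (1.21 ± 0.18) and lower in FBN1 (−1.95 ± 0.30), ACVR2A (−1.32 ± 0.21), ITGAV (−1.31 ± 0.22), SMAD1 (−1.3 ± 0.22) and ACVR1 (−1.17 ± 0.18). B/plasma-like nuclei were higher in BMP6 (3.01 ± 0.25) and lower in LTBP4 (−2.03 ± 0.46), ACVR2A (−1.64 ± 0.30), THBS1 (−1.62 ± 0.39), ITGAV (−1.14 ± 0.27) and SMAD1 (−1.06 ± 0.29). Adipocyte-like nuclei were higher in the receptor ACVR1C (6.25 ± 0.26), ID3 (2.41 ± 0.43), CHRDL1 (1.90 ± 0.26), BMPER (1.64 ± 0.29) and BMP1 (1.61 ± 0.31) and lower in LTBP1 (−2.68 ± 0.54). All genes named here had an adjusted p under 0.05 in edgeR's test of the class.

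The stages were compared in UMIs summed over all nuclei of a gland and over the epithelial-like, fibroblast-like and blood endothelial-like nuclei, with 2 sows a stage. Each fit compared L0 with G90, L20 with L0, PI2 with L20, PI7 with PI2, and the lactation stages with the others. No member was called in any of these 20 comparisons by edgeR, and 0 of the pathway list was called. The background was 0% of 22695 genes in the whole gland, 0% of 13045 in fibroblast-like and 0% of 10491 in blood endothelial-like nuclei in all comparisons. In epithelial-like nuclei it was 0.00509% of 19652 genes for L0 against G90, 0.0102% for lactation against the other stages, and 0% in the other comparisons. In the order just given, the number of members with an unadjusted p under 0.05 was 3, 3, 0, 0 and 2 of 10 in the whole gland, 2, 1, 1, 0 and 2 of 10 in epithelial-like nuclei, 2, 2, 0, 0 and 1 of 9 in blood endothelial-like nuclei and 0 of 9 throughout in fibroblast-like nuclei. The shares of all genes with such a p were, in the same order, 7.28%, 12.8%, 3.6%, 2.04% and 5.49% in the whole gland, 11.7%, 13.2%, 3.31%, 2.67% and 9.79% in epithelial-like nuclei, 5.97%, 6.34%, 3.59%, 2.11% and 3.46% in blood endothelial-like nuclei, and 1.97% to 5.89% in fibroblast-like nuclei. In whole-gland sums, fewer cells of a type and less RNA per cell cannot be told apart.

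**Figure D4:**
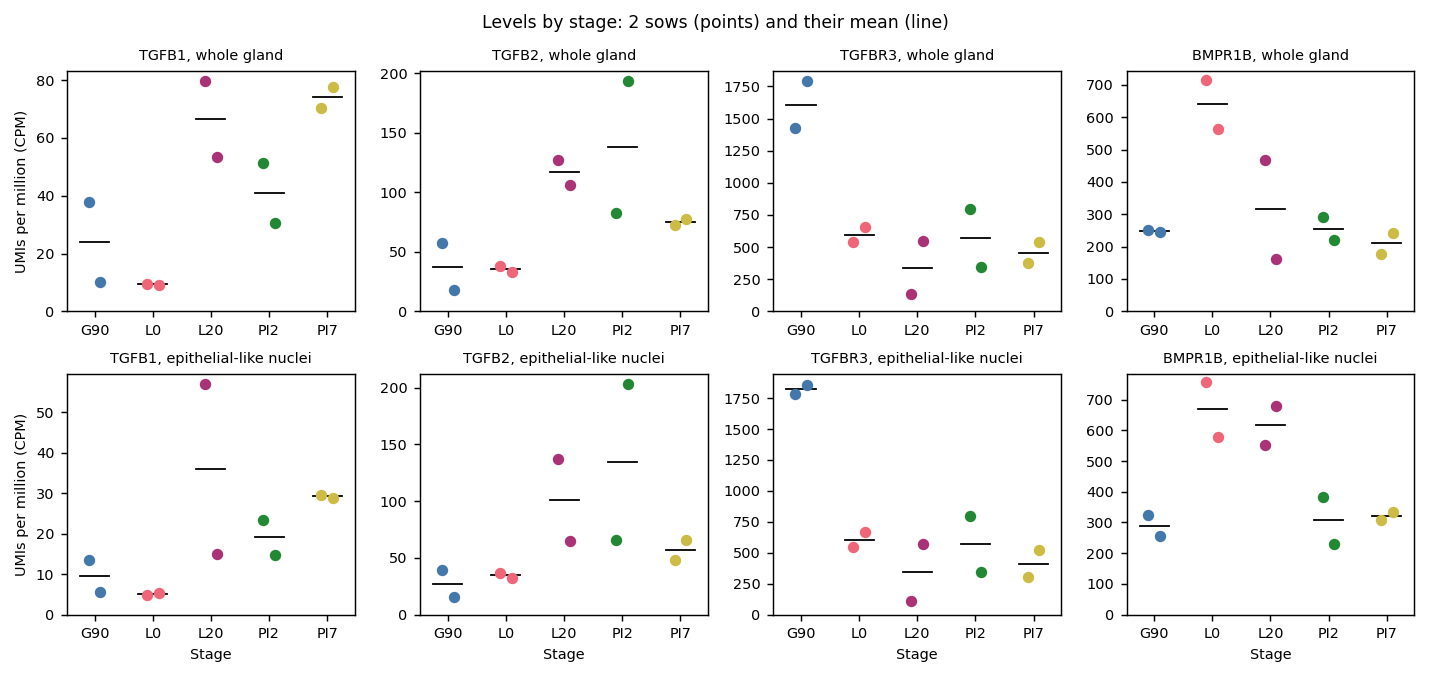
Level (y axis, CPM) of TGFB1, TGFB2, TGFBR3 and BMPR1B by stage (x axis) in all gland nuclei (top) and in epithelial-like nuclei (bottom), with 1 point per sow and the mean of 2 sows as a line. The G90 sows are the highest for TGFBR3, the L0 sows the lowest for TGFB1, and the 4 lactation sows the highest for BMPR1B in epithelial-like nuclei; no gene passed edgeR's test.

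BMPR1B in epithelial-like nuclei came closest to a stage call. The G90 sows held 323 and 255.1 CPM, the L0 sows 758 and 579.8 CPM, the L20 sows 553 and 679.6 CPM, the PI2 sows 383 and 230.4 CPM, and the PI7 sows 308 and 334 CPM. All 4 lactation sows were above all 6 others. The 2 lactation stages were unlike in casein RNA, at 1.06% and 0.774% of the gland UMIs at L0 and 0.0721% and 0.0106% at L20. It was 0.121% and 0.806% at G90, and 0.0114% to 0.0908% at PI2 and PI7. Lactation against the other stages gave a log2 fold change of 1.25 ± 0.24 (adjusted p = 0.133 in edgeR's test), and L0 against G90 gave 1.58 ± 0.38 (adjusted p = 0.129). Without L20 replicate 2 the lactation value was 1.29 (adjusted p = 0.198). DESeq2 called both, at 1.27 (adjusted p = 0.0011) with a background of 1.18% and 1.56 (adjusted p = 0.011) with a background of 2.95%. In the whole gland, L20 replicate 2 held 162 CPM of BMPR1B, the lowest of all sows, against 680 CPM in its epithelial-like nuclei, which were 9.04% of its nuclei.

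TGFBR3 was highest at G90. In epithelial-like nuclei the G90 sows held 1787 and 1859 CPM, and the other 8 sows between 111 and 797 CPM, with no overlap. L0 against G90 gave a log2 fold change of −1.24 ± 0.64 (adjusted p = 0.504 in edgeR's test). Over all nuclei the G90 sows held 1424 and 1790.3 CPM and the other sows 137 to 795 CPM. In 7 of the 9 classes other than epithelial-like, a G90 sow was the highest as well. This was replicate 1 in B/plasma-like nuclei and replicate 2 in the others of these classes. Of the kept nuclei of G90 replicate 2, 82.1% were epithelial-like. How much RNA freed from epithelial cells added to the levels of the other classes was not tested.

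TGFB1 was lowest at L0 in the whole gland, with 9.48 and 9.22 CPM, against 37.8 and 10.1 CPM at G90, 79.7 and 53.4 CPM at L20, 51.3 and 30.6 CPM at PI2, and 70.2 and 77.8 CPM at PI7. The L0 sows were the 2 lowest, close to the lower G90 sow. In epithelial-like nuclei the L0 sows held 4.77 and 5.43 CPM, L20 replicate 1 held 56.9 CPM and L20 replicate 2 held 14.996 CPM. L20 replicate 1 was the highest sow in this class and in 6 other classes, and a PI2 sow was the highest in 3. The part of a shift of that library across classes in the values below was not tested. L20 exceeded L0 by a log2 fold change of 2.40 ± 0.63 (adjusted p = 0.194 in edgeR's test) in all nuclei and 2.55 ± 0.71 (adjusted p = 0.191) in epithelial-like nuclei, or 2.88 (adjusted p = 0.199) and 3.29 (adjusted p = 0.0822) without L20 replicate 2. DESeq2 called both, at 2.38 (adjusted p = 0.0095, background 3.89%) and 2.57 (adjusted p = 0.0099, background 3.38%). Beside this, macrophage-like nuclei made up 0.62% and 0.511% of the kept nuclei of the L0 sows and 2.62% and 16.3% of those of the L20 sows, and T/NK-like nuclei 1.014% and 1.21% at L0 and 0.295% and 2.38% at L20. The part of these 2 classes in the whole-gland level was not tested.

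TGFB2 over all nuclei was 57.5 and 17.7 CPM at G90, 37.7 and 33.2 CPM at L0, 128 and 107 CPM at L20, 82.4 and 194 CPM at PI2, and 72.8 and 77.9 CPM at PI7. The 6 sows from L20 on were above the 4 earlier ones. L20 against L0 gave a log2 fold change of 1.26 ± 0.61 (adjusted p = 0.415 in edgeR's test). In epithelial-like nuclei the highest sow was PI2 replicate 2 at 203 CPM, while its partner PI2 replicate 1 held 65.5 CPM.

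TGFB3 over all nuclei ranged from 3.38 CPM to 21.1 CPM, both L0 sows (5.67 and 3.38 CPM) being below the others. TGFBR2 passed no test, with 102 and 107 CPM at G90, 182 and 202 CPM at L0, 111 and 388 CPM at L20, 248 and 102 CPM at PI2, and 310.1 and 275 CPM at PI7 over all nuclei. In epithelial-like nuclei its log2 fold change for L0 against G90 was 1.80 ± 0.60 (adjusted p = 0.26 in edgeR's test). TGFBR1 lay between 29.6 and 111 CPM, BMPR1A between 187 and 483 CPM and BMPR2 between 161 and 316 CPM over all nuclei, and for none of them was 1 stage apart from all 4 others. The L0 sows held more BMPR1A (346 and 483 CPM) than the L20, PI2 and PI7 sows (187 to 287 CPM), and the PI7 sows less BMPR2 (212 and 232 CPM) than the G90, L0 and L20 sows (251 to 316 CPM). INHBA was at 4.74 CPM in G90 replicate 1, at 2.36 CPM in L20 replicate 2 and between 0.0404 and 1.54 CPM in the other sows.

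Whether the hormone-sensing part of the epithelium carries more BMP receptor was the next question. Epithelial-like nuclei with UMIs of at least 2 of ESR1, PGR and PRLR, the receptors of estrogen, progesterone and prolactin, were compared with the other epithelial-like nuclei of the same sows. Over all stages BMPR1A was at 398 ± 114 CPM in the hormone-sensing nuclei and 370.2 ± 103 CPM in the others (SD, n = 10), higher in 7 of 10 sows, with a log2 fold change of 0.20 ± 0.07 (adjusted p = 0.0936 in edgeR's test). BMPR1B was at 442 ± 237 and 440.1 ± 175 CPM, with 0.02 ± 0.09 (adjusted p = 0.955). No member was called, 0 of 9, against a background of 1.36% of 15551 genes. TGFB1 was lower in 9 of 10 sows (−0.38 ± 0.14, adjusted p = 0.112), and 2 of the 9 members, TGFB1 and BMPR1A, had an unadjusted p under 0.05, as had 22.2% of all genes. TGFB2 (−0.22 ± 0.11), TGFB3 (0.10 ± 0.15), TGFBR1 (0.05 ± 0.07), TGFBR2 (0.08 ± 0.07), TGFBR3 (−0.02 ± 0.12) and BMPR2 (0.01 ± 0.07) had adjusted p from 0.276 to 0.986, and INHBA was too low to be tested.

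At PI2 alone, BMPR1B was at 293 and 142 CPM in the hormone-sensing nuclei of the sows against 411 and 234 CPM in their other epithelial-like nuclei, so it was lower in both sows. The log2 fold change was −0.53 ± 0.14 (adjusted p = 0.0489 in edgeR's test), under the fold limit. TGFB2, at 50.04 and 85.8 CPM against 70.3 and 208 CPM, gave −0.77 ± 0.19 (adjusted p = 0.0462), and TGFBR3 gave −0.67 ± 0.21 (adjusted p = 0.122). BMPR1A, at 302 and 232 CPM against 311 and 199 CPM, gave 0.14 ± 0.15 (adjusted p = 0.706). No member was called, against a background of 2.44%, and 3 of 9 had an unadjusted p under 0.05, as had 16.0% of all genes. TGFBR1 (−0.31 ± 0.18), TGFBR2 (−0.11 ± 0.17), TGFB1 (−0.19 ± 0.33), TGFB3 (−0.34 ± 0.38) and BMPR2 (−0.27 ± 0.16) had adjusted p from 0.429 to 0.841. PI2 replicate 2 gave only 106 hormone-sensing nuclei. Without PI2 replicate 1, TGFB2 (−1.07) and TGFBR3 (−1.19) were called, in a fit where the 1 remaining PI2 sow is assumed to vary like those of the other stages.

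A comparison of PI2 with the other stages, added after the data were seen, called 0 of 9 members against a background of 0.225%, 4 of them having an unadjusted p under 0.05 (10.6% of all genes), with −0.67 ± 0.15 for BMPR1B (adjusted p = 0.0857 in edgeR's test) and −0.07 ± 0.17 for BMPR1A (adjusted p = 0.931). The other 7 members lay between −0.81 for TGFBR3 and 0.25 for TGFB1 (adjusted p from 0.218 to 0.862). When nuclei had to hold UMIs of both ESR1 and PGR, BMPR1B (−2.05 ± 0.32, adjusted p = 0.000192) and TGFBR3 (−1.34 ± 0.32, adjusted p = 0.0098) were called lower at PI2, against a background of 6.07%. Over all stages with this gate, TGFBR3 was at 398 ± 223 against 764 ± 615 CPM and higher in 1 of 10 sows, BMPR1B was at 310.3 ± 259 against 446 ± 188 CPM and higher in 2 of 10 sows, and 0 of 9 members were called, as for PI2 against the other stages. BMPR1A was called with neither gate. With at least 2 receptors it was higher in 1 of 2 sows at PI2 and in 7 of 10 sows over all stages. With both ESR1 and PGR it was at 164 ± 15.2 against 257 ± 79.4 CPM at PI2, lower in both sows. Over all stages it was then at 349 ± 127 against 378 ± 109 CPM, higher in 4 of 10 sows. The PI2 values with both ESR1 and PGR rest on 108 nuclei with 37 BMPR1B UMIs in replicate 1 and on 18 nuclei with 10 BMPR1B UMIs in replicate 2. Of the pathway list, 5 of 61 tested genes were called at PI2 with at least 2 receptors, against a background of 2.44% of all genes with that gate. INHBB (2.59 ± 0.54), BMP7 (2.48 ± 0.53) and ITGAV (1.75 ± 0.26) were higher, and THBS1 (−1.27 ± 0.21) and LTBP2 (−1.14 ± 0.22) lower. Over all stages and for PI2 against the others, 0 of 61 were called, against 1.36% and 0.225% of all genes.

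The section files list another set of genes than the gland files, with the 10 members under the same identifiers in both, and the effect of this on levels set beside those of nuclei was not tested. In the tissue sections the members were compared without a test, as 1 section stood for each stage, and intervals are exact 95% Poisson intervals that cover counting error only. The G90 section had 4721 spots and 42815421 UMIs, and the PI2 section 2248 spots and 17906403 UMIs. TGFB1 was at 52.7 CPM (50.6 to 55.0) at G90 and 109 CPM (105 to 114) at PI2, and TGFB3 at 6.49 CPM (5.75 to 7.30) and 13.2 CPM (11.6 to 14.97). BMPR1A was at 54.5 CPM (52.3 to 56.8) and 26.5 CPM (24.1 to 29.0), and TGFBR3 at 199 CPM (195 to 203) and 143 CPM (138 to 149). In all, 7 of the 9 genes with a UMI had intervals that did not overlap, against a background of 58.2% of all genes with a UMI and 75.9% of those with at least 100 UMIs over both sections. TGFBR2 was at 84.5 CPM (81.8 to 87.3) and 98.8 CPM (94.3 to 104), BMPR1B at 19.2 CPM (17.95 to 20.6) and 15.3 CPM (13.5 to 17.2) and BMPR2 at 8.22 CPM (7.38 to 9.13) and 4.75 CPM (3.79 to 5.87). TGFB2 (5.65 and 5.58 CPM) and TGFBR1 (39.3 and 36.5 CPM) had intervals that overlapped. INHBA had no UMI in either section, with an upper bound of 0.0862 CPM at G90 and 0.206 CPM at PI2.

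Spots hold several cells, so regions were taken as the 10% of spots richest in UMIs of a marker list. Over 10 marker lists and both sections, 49 of 180 pairs of gene and region had intervals apart between the region and the other spots, against a background of 13.8% over all genes with a UMI. With at least 100 UMIs in the section these were 48 of 170 pairs, against 19.8%. The pairs given below are a part of these, chosen after their values were seen. For TGFBR1, TGFBR3, BMPR1A and BMPR2 the region of the class highest among nuclei is not among them. For TGFB1 the T/NK region is given at G90 only. TGFBR2 was at 168 CPM (150 to 187) in the spots richest in lymphatic endothelial markers at G90 against 80.7 CPM (78.0 to 83.5) in the other spots, and at 207 CPM (176 to 243) against 94.1 CPM (89.6 to 98.8) at PI2. In the spots richest in fibroblast markers it was at 158 CPM (138 to 181) against 82.1 CPM (79.3 to 84.9) at G90 and at 199.98 CPM (163 to 243) against 95.9 CPM (91.3 to 101) at PI2. TGFB2 at G90 was at 16.8 CPM (11.5 to 23.7) in the lymphatic marker spots against 5.13 CPM (4.46 to 5.88), and at PI2, with 3 UMIs inside, at 4.01 CPM (0.827 to 11.7) against 5.65 CPM (4.58 to 6.90). At G90 it was also higher, with intervals apart, in the fibroblast (15.8 CPM, 9.92 to 23.96), blood endothelial (14.1 CPM, 10.1 to 19.2), myoepithelial (12.5 CPM, 8.98 to 16.98) and epithelial marker spots (9.21 CPM, 6.38 to 12.9). TGFB3 at PI2 was at 34.4 CPM (23.5 to 48.6) in the spots richest in mural markers against 12.02 CPM (10.4 to 13.8), and at G90 at 7.09 CPM (4.54 to 10.5) against 6.44 CPM (5.67 to 7.28). TGFB1 in the spots richest in macrophage markers was at 148 CPM (130.4 to 168) against 106 CPM (101 to 111) at PI2, and at 57.5 CPM (48.8 to 67.4) against 52.4 CPM (50.2 to 54.7) at G90, where the intervals overlapped. At G90 it was higher in other regions, at 67.1 CPM (58.6 to 76.5) against 51.5 CPM (49.3 to 53.8) in the T/NK marker spots and at 62.8 CPM (55.0 to 71.5) against 51.8 CPM (49.6 to 54.1) in the epithelial marker spots, although epithelial-like nuclei were low in it. BMPR1B in the spots richest in epithelial markers was at 20.3 CPM (16.0 to 25.5) against 19.1 CPM (17.8 to 20.6) at G90 and at 11.9 CPM (7.56 to 17.9) against 15.7 CPM (13.8 to 17.8) at PI2, with overlapping intervals. In the spots richest in myoepithelial markers at PI2 it was at 4.41 CPM (1.77 to 9.09), on 7 UMIs, against 16.4 CPM (14.5 to 18.4). TGFBR3 at PI2 was at 92.8 CPM (79.7 to 107) against 149 CPM (143 to 156) in the epithelial and at 84.4 CPM (70.8 to 100.01) against 149 CPM (143 to 155) in the myoepithelial marker spots. In no epithelial or myoepithelial region was either receptor above the other spots with intervals apart, whereas both were called higher in these classes of nuclei.

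Milk holds shed epithelium and leukocytes. Both milk libraries carry the tissue label of the gland and are known as milk cells from the study's methods, and the title of the L0 library has the letter that marks G90 among the glands, so that its stage rests on the other labels. They were compared in 17571 cells at L0 and 14514 cells at L20, again without a test. TGFB1 was at 196 CPM (183 to 209) at L0 and 163 CPM (157 to 169.7) at L20 in macrophage-like cells, at 219 CPM (184 to 259) and 264 CPM (243 to 286) in T/NK-like cells, at 95.1 CPM (90.5 to 99.96) and 115 CPM (109 to 121) in neutrophil-like cells, and at 7.27 CPM (6.57 to 8.02) and 5.63 CPM (4.19 to 7.40) in epithelial-like cells. T/NK-like and macrophage-like cells were thus above the epithelial-like cells in milk at both stages. The epithelial-like cells of the libraries were unlike, since 2230 of 2860 at L0 (median 17503 UMIs a cell) and 302 of 1074 at L20 (median 2774.5 UMIs) were mixed, that is held 2 or more markers of a further class. Of the macrophage-like cells, 361 of 769 at L0 and 1121 of 1559 at L20 were mixed, and the part of mixed cells in the levels was not tested. TGFBR3 was at 122 CPM (119.5 to 125) at L0 and 67.0 CPM (61.8 to 72.5) at L20 in epithelial-like cells and at 5.64 to 21.9 CPM in the 3 immune classes. BMPR1A in epithelial-like cells was at 26.0 CPM (24.6 to 27.3) and 10.7 CPM (8.68 to 13.1), and TGFBR2 at 22.0 CPM (20.7 to 23.3) and 14.5 CPM (12.1 to 17.2). BMPR1B in epithelial-like cells was at 9.42 CPM (8.62 to 10.3) and 6.84 CPM (5.25 to 8.77), with intervals that overlapped.

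**Figure D5:**
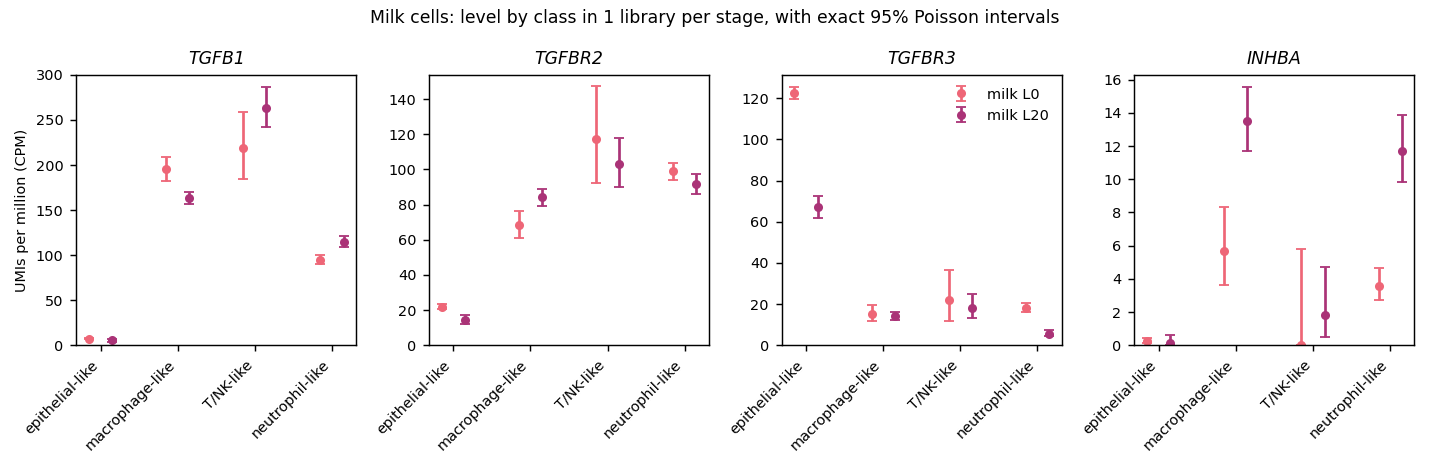
Level (y axis, CPM) of TGFB1, TGFBR2, TGFBR3 and INHBA in the classes of milk cells (x axis) at L0 and L20, with exact 95% Poisson intervals and 1 library per stage. TGFB1 was low in epithelial-like cells, TGFBR3 highest there, and INHBA was higher at L20 in macrophage-like and neutrophil-like cells.

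INHBA, at 0.0404 to 4.74 CPM in the glands, gave 116 of 80995806 UMIs in milk at L0, in 88 of 17571 cells. At L20 it gave 470 of 42948881 UMIs, in 274 of 14514 milk cells. Macrophage-like cells were at 5.65 CPM (3.66 to 8.35) at L0 and 13.5 CPM (11.7 to 15.5) at L20, and neutrophil-like cells at 3.59 CPM (2.73 to 4.63) and 11.7 CPM (9.83 to 13.9). Epithelial-like cells held 14 UMIs at L0 and 1 UMI at L20. At L20, 198 UMIs lay in 105 of 1559 macrophage-like cells (6.74%, median 5621 UMIs a cell), while 0.0931% of epithelial-like cells (median 2774.5 UMIs a cell) held a UMI of INHBA. Between the stages, the intervals of all 10 genes did not overlap over all milk cells, against a background of 45.1% of all genes with a UMI and 77.4% of those with at least 100 UMIs over both libraries. By class, the intervals were apart for 3 of 10 genes in epithelial-like (background of all genes with a UMI 33.8%), 5 of 10 in macrophage-like (29.4%), 6 of 10 in neutrophil-like (26.9%) and 0 of 10 in T/NK-like cells (11.6%). Among genes with at least 100 UMIs over both libraries, they were apart for 3 of 9 members in epithelial-like (background 66.2%), 5 of 7 in macrophage-like (53.0%), 4 of 7 in neutrophil-like (59.3%) and 0 of 2 in T/NK-like cells (27.1%). Caseins made up 13.9% of UMIs over all milk cells at L0 and 5.25% at L20, and their part in these levels was not tested.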

How the data were processed

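Single-nucleus RNA-seq of 10 mammary glands, Visium sections and single-cell RNA-seq of milk cells were made by the authors with GEXSCOPE and Visium kits, aligned to Sscrofa11.1. The values are raw UMI counts per gene, which the authors deposited as sparse matrices. The submitters' processing notes name Space Ranger 1.2.0 and Seurat 4.3.0, while a section file header gives another Space Ranger version. No cell annotation was used, so classes were rebuilt and can differ from the clusters of the study.

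Nuclei and cells with at least 300 genes and at most 25% of UMIs from 13 mitochondrial genes were kept. A class needed at least 2 different markers and more than any other class. KRT17, LAMA2, STAB2, AQP7, S100A9 and CXCR2 are markers not found under these symbols in the files. No doublet caller was run. UMIs were summed per sow, or per sow and class for sums of at least 10 nuclei, and tested with edgeR 4.0.16 (TMM, filterByExpr, quasi-likelihood test, R 4.3.3) across all genes with Benjamini-Hochberg adjustment. The stage fits had no block, and the class and hormone-sensing fits had sow as a block. Scripts were tested on simulated data. DESeq2 1.42.0 and other settings were alternatives. The study describes the 2 sows of a stage as separate animals. Milk and sections had 1 library a stage and no test.

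The rule named all 10 genes in every comparison, and of the pathway list the called genes, or the 6 with the smallest adjusted p where more than 6 were called. Of these, 1 gene is not reported here. In milk classes and section regions only some of the 10 genes are described, chosen after their values were seen. The genes and lists were chosen with earlier results of these data known. Windows come from RefSeq starts in Sscrofa11.1, with 1-based coordinates.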

Additional observations from a re-analysis of the deposited data

How the results depend on the processing

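The 28 class calls numbered 26 to 33 when each sow was left out in turn and became 17 of 80 tests with mixed nuclei left out, where the 5 calls of TGFB3 could not be tested, 8 others were lost and 2 were gained. TGFB1 in T/NK-like, macrophage-like and epithelial-like nuclei, TGFB2 in lymphatic endothelial-like and macrophage-like nuclei, TGFBR3 in fibroblast-like and macrophage-like nuclei, BMPR1A in epithelial-like nuclei and BMPR1B in epithelial-like and myoepithelial-like nuclei were called in all 19 alternatives. The stage fits, with 0 calls, gave 1 call in the whole gland and 3 in epithelial-like nuclei with DESeq2, and 1 in epithelial-like nuclei without a filter on low counts, where BMPR1B in lactation reached 1.24 (adjusted p = 0.0454 in edgeR's test). Leaving out any sow left 0 calls in each of the 4 stage fits. At PI2 the hormone-sensing calls went from 0 to 2 with both ESR1 and PGR required and to 1 without a filter on low counts, and ranged from 0 to 2 with 1 sow left out. For PI2 against the other stages they ranged from 0 to 1, and without PI2 replicate 1 TGFBR3 was called (−1.31, adjusted p = 0.0114). The cause of these changes was not tested. In milk, the neutrophil-like genes with intervals apart went from 6 to 3 under a stricter gate of 500 genes and 10% mitochondrial UMIs. The deviations of same-numbered sows of different stages had correlations from −0.52 to 0.39 over all nuclei, with no common sign. The study describes sows divided into groups by stage and euthanized for collection, so same-numbered glands of different stages are of different sows. With 2 sows a stage, these values cannot settle whether same-numbered samples were handled together. The stage fits with the replicate number as a block gave 0 calls, as did those without it. Without sow as a block the class calls numbered 28. The stage fits had 2 sows a stage and a biological coefficient of variation of 0.555 in the whole gland.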
